A study of Mus musculus with 3 samples.

Results

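Antibody heavy chain V segments, the Ighv genes, were examined in LT-HSCs, the long-term haematopoietic stem cells of the bone marrow, which sustain blood formation. Members were all probe sets whose gene symbol began with Ighv followed by a number, which gave 88 of 23185 named probe sets, in 16 V families numbered after Ighv. All 88 matched the RefSeq gene table (GRCm38.p6) by Entrez identifier and symbol, all lie on chromosome 12, and all are annotated there as V segments and none as a pseudogene. The same table holds 183 Ighv entries, 120 of them V segments and 63 pseudogenes, so the array values cover only part of the locus.

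The study had 3 groups of female C57Bl/6 mice aged 8 to 10 weeks, with 1 array each. The FLASH group received 8 Gy of total body irradiation (TBI) as FLASH, which is delivery at an ultra-high dose rate. The CDR group received 8 Gy TBI as CDR, read here as conventional dose rate because the labels do not spell it out, and the third group was not irradiated. The labels give 10000 LT-HSCs per isolation at 15 days after TBI, but neither the sorting gate nor the number of mice behind a sample.

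With 1 array per group no difference could be tested or checked in replicates, so "higher" and "lower" are said of these arrays only. Values are the authors' log2 levels, and a difference is one array's log2 level minus the other's, so that 1 is a 2-fold difference. A segment was taken as detected in a comparison when its brighter array read above the detection level of that array. That level was the 95th percentile of 1364 receptor genes taken as unexpressed (olfactory, vomeronasal and trace amine receptors), and it stood at 4.22 for FLASH, 4.16 for CDR and 4.15 for non-irradiated. A fold against an array that read under its own level was counted from that level and is written "at least". Counts of segments or genes higher or lower by a given fold hold detected ones only and use the deposited differences, also where an array was dim, unless they are said to be counted from the level.

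A heavy chain variable region is assembled in developing B cells, when the RAG recombinase joins a V segment to a D and a J segment. The joined exon is then transcribed together with a constant region gene, so a B cell or plasma cell carries mainly the V segment that it has rearranged. Unrearranged V segments are also transcribed at a low level as germline transcripts in early lymphoid precursors. Segments of a family are alike in sequence, so that signals of single members within a family cannot be separated with confidence.

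The label of the cells was set against marker genes. All 15 measured LT-HSC genes of the 17 listed read above the detection level on each array, with a median level of 7.27 on FLASH, 7.48 on CDR and 7.91 on non-irradiated. The list also holds Cd48, Flt3 and Cd34, markers that LT-HSCs lack or carry little of, so that detection of these 3 does not bear out the label. Cd34, the brightest gene of the list, read 10.81 on FLASH, 10.92 on CDR and 11.25 on non-irradiated. Cd48 read 10.05 on FLASH, 10.18 on CDR and 9.70 on non-irradiated. Fgd5 and Hoxb5 were the dimmest of the list, near the detection level. Fgd5 read 4.35 on FLASH, 4.47 on CDR and 4.64 on non-irradiated. Hoxb5 read 4.56 on FLASH, 4.56 on CDR and 4.75 on non-irradiated. Cd34, Cd48, Fgd5 and Hoxb5 were named after their values were seen. Against non-irradiated, 2 of the 15 genes were at least 2-fold lower on FLASH and 4 on CDR, with 0 higher. Flt3 was among them in both comparisons, at -1.47 on FLASH and -1.05 on CDR. Over all named probe sets, 1.0% were lower by as much on FLASH and 1.37% on CDR. In all, 13 of 15 differences were negative on FLASH and 14 of 15 on CDR, against 6103 and 6006 of 23185 named probe sets. Exact ties with non-irradiated made up 10979 of the named probe sets on FLASH and 11131 on CDR, against 0 of the 15 genes. Hlf, a stem cell maintenance factor, read 8.02 on FLASH, 7.92 on CDR and 9.92 on non-irradiated. Procr, the stem cell surface marker EPCR, read 6.33 on FLASH, 5.42 on CDR and 7.15 on non-irradiated. Slamf1, the marker CD150, read 6.24 on FLASH, 6.11 on CDR and 6.13 on non-irradiated. Procr was thus lowest on the CDR array, while Slamf1 was nearly level. Kit, the stem cell factor receptor, read 9.38 on FLASH, 9.78 on CDR and 10.25 on non-irradiated. Of 19 measured B lineage factor and surface genes, 9 were above the level on each array. Those under it on all 3 arrays included Ms4a1 (CD20), Cd22, Cr2 and the B lineage factor Ebf1, and these 4 were named after their values were seen. Others stood well above it, and those given here were also named after their values were seen. Cd37 read 9.12 on FLASH, 9.26 on CDR and 9.41 on non-irradiated. Cd72 read 6.72 on FLASH, 6.65 on CDR and 7.70 on non-irradiated, and Ikzf1 read 9.27 on every array. Pax5, the B cell identity factor, read 5.07 on every array.

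Ighv segments were detected on every array, fewest on the CDR array. Above the detection level were 50 of 88 on FLASH, 33 on CDR and 56 on non-irradiated. Over all 23185 named probe sets, 13054 were above it on FLASH, 13200 on CDR and 13316 on non-irradiated. The median level over all 88 was 4.72 on FLASH, 3.37 on CDR and 5.27 on non-irradiated. In bulk arrays, fewer cells with a given transcript and less of it per cell cannot be told apart. The CDR array alone held the lowest value for 57 of the 88 segments, the FLASH array alone for 8 and the non-irradiated array alone for 9. Among the 63 segments above the level on any array, those counts were 46, 7 and 6. Over all 23185 named probe sets those numbers were 2738 for CDR, 2909 for FLASH and 4608 for non-irradiated.

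The segments fell into a few patterns of detection. On all 3 arrays 30 segments read above the level, and 25 did on none. A further 14 were above it on the FLASH and non-irradiated arrays but not on CDR, whereas 1, Ighv1-84, was above it on CDR and non-irradiated but not on FLASH. On the non-irradiated array alone 11 were above the level. On FLASH alone there were 5, which were Ighv3-1, Ighv5-9, Ighv14-4, Ighv1-50 and Ighv8-6, and on CDR alone there was 1, Ighv2-6-8. Ighv12-3 was the 1 segment above the level on both irradiated arrays and not on the non-irradiated one. Ighv1-50 and Ighv8-6 were named after their values were seen.

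**Figure D1:**
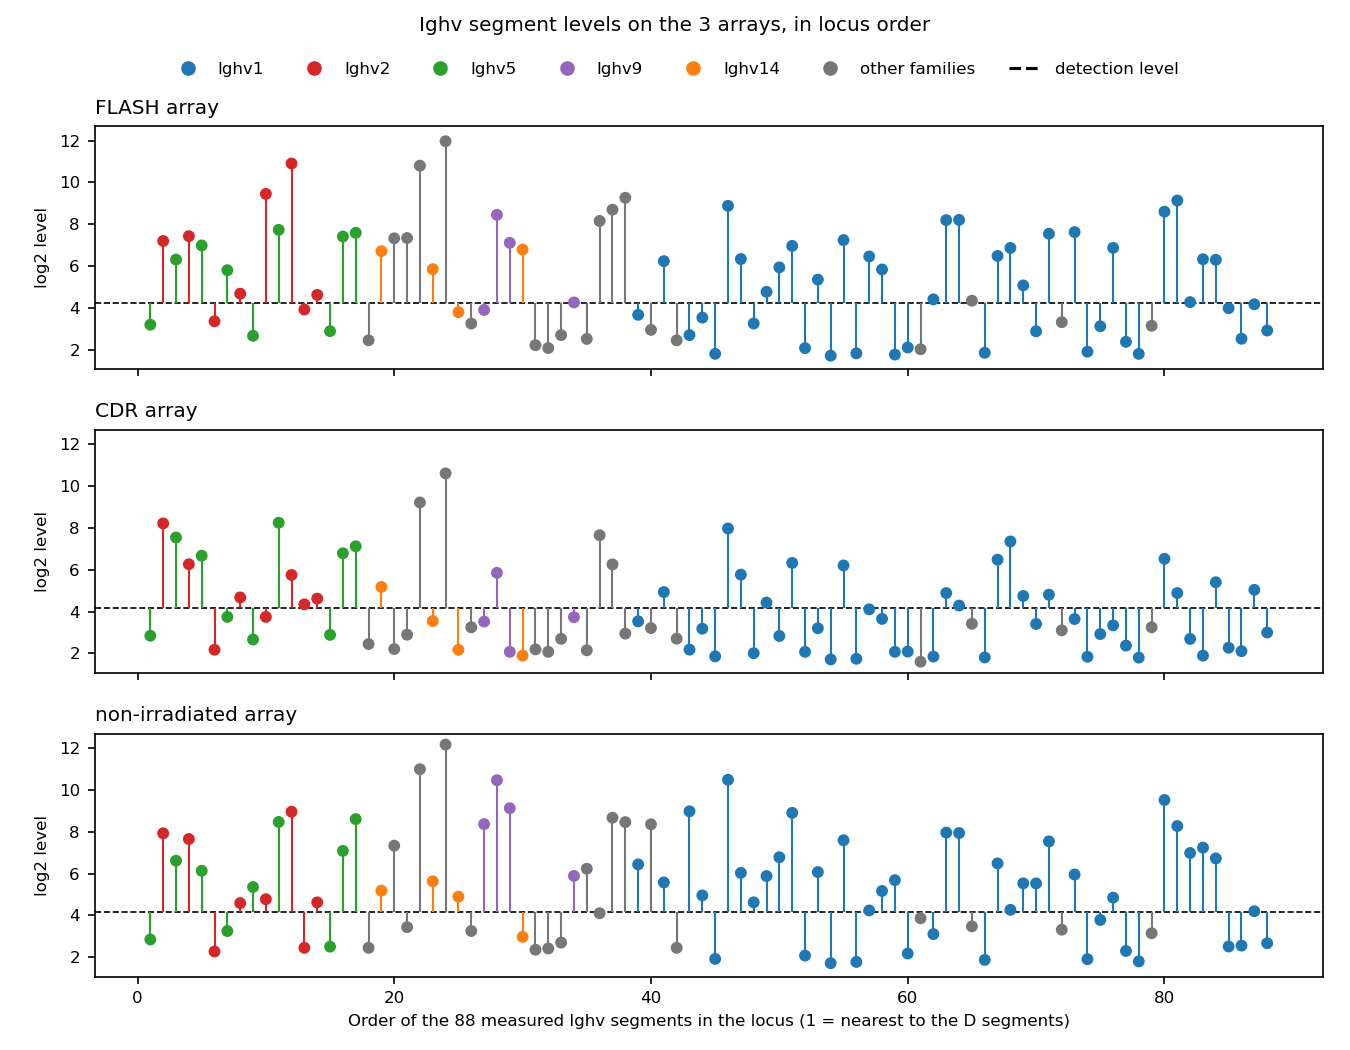
Log2 level of each of the 88 measured Ighv segments (vertical axis) on the FLASH, CDR and non-irradiated arrays, in the order of the segments along the locus (horizontal axis, 1 is nearest to the D segments). Points are single segments coloured by V family, lines run to the array's detection level (dashed), and 50 segments stand above it on FLASH, 33 on CDR and 56 on non-irradiated.

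The FLASH and non-irradiated arrays were compared to ask how V segment levels stood after irradiation at the ultra-high dose rate. Segments differed in both directions by large amounts. Of the 88, FLASH was at least 2-fold higher for 12 and lower by as much for 19, which is 13.6% and 21.6%, and 62 passed the detection filter. Over all named probe sets the same rule called 0.669% higher and 1.0% lower. The median difference over the 88 was 0.00, as it was over all named probe sets. The median absolute difference was 0.72, against 0.02 over all named probe sets. Exact ties between the 2 arrays made up 13.6% of the 88 and 47.4% of all named probe sets, which lowers the latter median. Counted from the detection level where an array was dim, 11 were higher and 16 lower by at least 2-fold.

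Ighv2-6 had the largest positive difference between FLASH and non-irradiated. It read 9.45 on FLASH, 3.75 on CDR and 4.77 on non-irradiated, a FLASH minus non-irradiated difference of 4.68 (25.6-fold). Ighv12-3 read 8.16 on FLASH, 7.66 on CDR and 4.10 on non-irradiated. This segment, known from antibodies of B-1 cells against phosphatidylcholine, stood at least 16.1-fold higher on FLASH and at least 11.4-fold higher on CDR than on the non-irradiated array. Ighv3-1 read 7.34 on FLASH, 2.90 on CDR and 3.43 on non-irradiated. Ighv14-4 had a like profile, with 6.79 on FLASH, 1.89 on CDR and 2.97 on non-irradiated. Both were under the level on the non-irradiated array, and FLASH was at least 9.13-fold higher for Ighv3-1 and at least 6.23-fold higher for Ighv14-4. Ighv5-9 read 5.80 on FLASH, 3.75 on CDR and 3.25 on non-irradiated, at least 3.14-fold above non-irradiated on FLASH. Ighv1-58 read 6.87 on FLASH, 7.36 on CDR and 4.26 on non-irradiated, so that both irradiated arrays were above the non-irradiated one.

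In the other direction, the 6 largest deposited differences all belonged to segments above the level on the non-irradiated array alone. Ranking by deposited differences favours segments that read far under the level on FLASH. Ighv1-9 read 2.70 on FLASH, 2.18 on CDR and 8.98 on non-irradiated, a FLASH minus non-irradiated difference of -6.28 and at least 27.1-fold lower on FLASH. Ighv10-3 read 2.95 on FLASH, 3.21 on CDR and 8.36 on non-irradiated, at least 17.6-fold lower on FLASH. These 2 segments were therefore under the level on FLASH and CDR alike. Ighv9-1 read 3.90 on FLASH, 3.52 on CDR and 8.37 on non-irradiated, at least 17.8-fold lower on FLASH. Ighv3-8, at 2.51 on FLASH, 2.15 on CDR and 6.23 on non-irradiated, was at least 4.04-fold lower on FLASH. Ighv1-47 and Ighv1-5 complete the 6. Ighv1-47 read 1.76 on FLASH, 2.07 on CDR and 5.68 on non-irradiated, and Ighv1-5 read 3.67 on FLASH, 3.53 on CDR and 6.44 on non-irradiated. Counted from the level, they were at least 2.76-fold and at least 4.66-fold lower on FLASH. Ighv1-77, named after its values were seen, was 6.54-fold lower on FLASH. It read 4.27 on FLASH and 6.98 on non-irradiated, above the level on both.

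The CDR and non-irradiated arrays were compared to ask the same of irradiation as CDR, and here the segments lay mostly in 1 direction. On CDR, 3 of 88 segments were higher and 41 lower by at least 2-fold, which is 3.41% and 46.6%, and 58 passed the detection filter. Over all named probe sets the same rule called 0.444% higher and 1.37% lower. The median difference over the 88 was -0.94, against 0.00 over all named probe sets. It was -0.28 with dim values set to the detection level, -0.29 with an offset of 32 before the log, -0.32 without family Ighv1 and -2.10 over detected segments only. Detection needed only the brighter array, so that filter favours large differences and the last median is no independent check. By size, 30 segments were at least 4-fold lower and 16 at least 8-fold lower in deposited values. Counted from the detection level where an array was dim, 2 segments were higher and 36 lower by at least 2-fold, 21 lower by at least 4-fold and 12 by at least 8-fold. The comparison shares its non-irradiated array with that of FLASH.

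Ighv9-3 read 7.11 on FLASH, 2.07 on CDR and 9.13 on non-irradiated, a CDR minus non-irradiated difference of -7.05 and at least 31.3-fold lower on CDR. Ighv1-9 followed at -6.80, at least 28.2-fold lower on CDR. Ighv10-1 read 9.27 on FLASH, 2.95 on CDR and 8.46 on non-irradiated, at least 19.7-fold lower on CDR. Ighv9-3 and Ighv10-1 were thus under the level on CDR only, unlike Ighv1-9. Ighv1-78 read 6.33 on FLASH, 1.89 on CDR and 7.24 on non-irradiated, at least 8.45-fold lower on CDR. Ighv4-1, the 1 measured member of its family, read 7.33 on FLASH, 2.21 on CDR and 7.33 on non-irradiated, at least 9.03-fold lower on CDR. Its FLASH and non-irradiated values differed by -0.01. The sixth, Ighv10-3, stood at -5.14. This ranking by deposited differences favours segments that read far under the level on CDR. Among segments above the level on both arrays, Ighv9-2 was 24.5-fold lower on CDR, at 5.85 against 10.47 on non-irradiated. Ighv1-53 was 12.5-fold lower and Ighv1-76 10.5-fold lower, also with both arrays above the level. Ighv9-2, Ighv1-53 and Ighv1-76 were named after their values were seen.

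The 3 segments higher on CDR by at least 2-fold in deposited values were Ighv12-3 (3.55), Ighv1-58 (3.09, or 8.54-fold) and Ighv2-6-8 (1.90). Ighv2-6-8 read 3.92 on FLASH, 4.35 on CDR and 2.45 on non-irradiated, so that, counted from the level, it was at least 1.15-fold higher and is not shown to reach 2-fold. Ighv5-4 read 6.31 on FLASH, 7.55 on CDR and 6.61 on non-irradiated, within 2-fold on CDR against non-irradiated, at 0.93. Ighv1-84 and Ighv5-6 were also within 2-fold, at 0.84 and 0.54.

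The FLASH and CDR arrays, which had the same dose, were compared to ask how the segments stood at different dose rates. Segments were higher on FLASH far more often than lower. Of 88, FLASH was higher for 31 and lower for 2 by at least 2-fold, which is 35.2% and 2.27%, and 52 passed the detection filter. Over all named probe sets the same rule called 0.483% higher and 0.0819% lower. The median difference over the 88 was 0.49, against 0.00 over all named probe sets, of which 54.1% were exact ties. It was 0.056 with dim values set to the detection level, 0.19 with an offset of 32 before the log and 1.56 over detected segments only. The last median again comes from a filter that favours large differences. Counted from the level, FLASH was higher for 29 and lower for 2 by at least 2-fold. By at least 8-fold FLASH was higher for 14 segments in deposited values and for 9 counted from the detection level, and 0 were at least 4-fold lower.

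In deposited values Ighv10-1 had the largest FLASH minus CDR difference, 6.32, with FLASH at least 34.5-fold higher. Ighv2-6 followed at 5.70, at least 39.2-fold higher on FLASH, which is the larger bound. Both segments were above the level on non-irradiated and under it on CDR. Ighv2-9-1 read 10.91 on FLASH, 5.75 on CDR and 8.96 on non-irradiated, a FLASH minus CDR difference of 5.15 (35.6-fold) with all 3 arrays above the level. Ighv4-1 stood at 5.12, Ighv9-3 at 5.04 and Ighv14-4 at 4.90, each with CDR under the level. For Ighv4-1 and Ighv9-3 the non-irradiated array also read far above CDR, whereas for Ighv14-4 it lay under the level like CDR.

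Among the few segments that were lower on FLASH than on CDR, Ighv5-4 stood at -1.24 (2.35-fold). Ighv2-2 read 7.20 on FLASH, 8.22 on CDR and 7.93 on non-irradiated, a FLASH minus CDR difference of -1.02 (2.03-fold). Ighv1-84, at 4.17 on FLASH, 5.04 on CDR and 4.20 on non-irradiated, was within 2-fold at -0.87. Ighv5-9-1 stood at -0.52, Ighv1-58 at -0.49 and Ighv2-6-8 at -0.43. The largest of these 6, that of Ighv5-4, was far under the 6 largest positive differences.

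**Figure D2:**
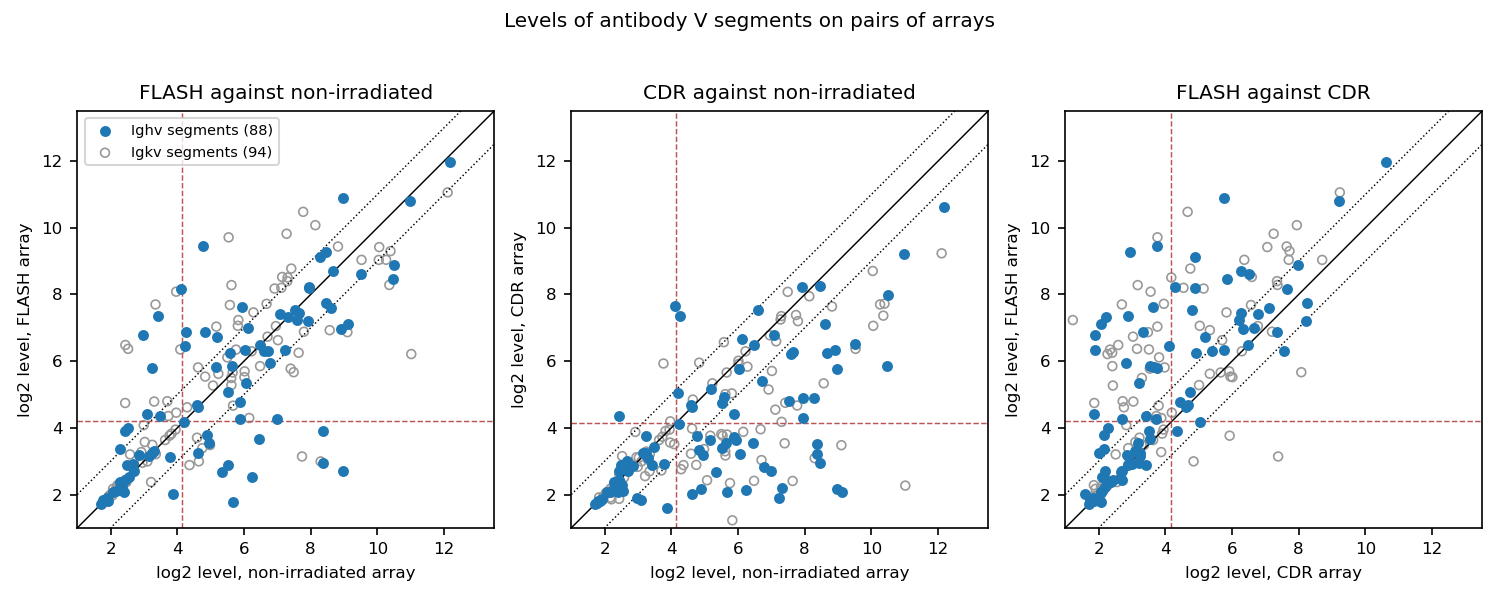
Log2 levels of the 88 Ighv segments (filled) and of the 94 Igkv segments of the kappa light chain (open) on pairs of arrays, with the array named first in each panel title on the vertical axis. The solid line marks equal levels, dotted lines 2-fold, and dashed lines the detection levels. In the panel of FLASH against CDR, 31 Ighv segments are detected and lie on or above the upper 2-fold line, and 2 lie below the lower one.

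Some detected segments differed little over the arrays. Ighv1-56 read 6.49 and Ighv2-7 read 4.62 on all 3 arrays. Ighv2-5 read 4.68 on FLASH, 4.68 on CDR and 4.59 on non-irradiated. Exact ties between arrays were common in the deposited values, so that equal readings are not by themselves a measure of precision. Ighv1-18 read 6.34 on FLASH, 5.77 on CDR and 6.03 on non-irradiated. Ighv5-16 read 7.41 on FLASH, 6.79 on CDR and 7.09 on non-irradiated. Ighv5-9-1 read 7.73 on FLASH, 8.25 on CDR and 8.47 on non-irradiated. All 3 stayed within 2-fold in each comparison.

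By V family, Ighv1 was the largest, with 44 of the 88 segments, so that it makes up a large part of the whole. On FLASH against CDR, 16 of 44 were at least 2-fold higher and 0 lower. On CDR against non-irradiated, 1 was at least 2-fold higher and 23 lower. On FLASH against non-irradiated, 5 were at least 2-fold higher and 10 lower. The median differences of the family were 0.54 for FLASH minus CDR, -1.35 for CDR minus non-irradiated and -0.02 for FLASH minus non-irradiated. Over the other families together, the medians were 0.44 for FLASH minus CDR, -0.32 for CDR minus non-irradiated and 0.00 for FLASH minus non-irradiated.

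Of the Ighv2 family, 3 of 8 segments were higher and 1 lower on FLASH than on CDR by at least 2-fold. None was at least 2-fold lower on FLASH than on non-irradiated, where the count of higher segments was 2. Ighv5 had 9 measured segments and was nearly balanced between FLASH and CDR, with 1 at least 2-fold higher and 1 lower. On CDR against non-irradiated, 2 of the 9 Ighv5 segments were at least 2-fold lower and 0 higher, with a median of 0.00. All 4 Ighv9 segments were at least 2-fold lower on both irradiated arrays than on the non-irradiated one, with medians of -2.02 on FLASH and -4.73 on CDR. In Ighv14, FLASH exceeded CDR by at least 2-fold in 3 of 4 segments, and the median was 1.96. Of the 4 Ighv8 segments, 0 were detected and at least 2-fold higher or lower in any comparison, and 1 was above the level, on FLASH only.

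Families with 3 or fewer measured members were read segment by segment. Ighv11-2 read 11.97 on FLASH, 10.62 on CDR and 12.17 on non-irradiated, and Ighv11-1 read 10.80 on FLASH, 9.22 on CDR and 11.00 on non-irradiated. The Ighv11 family, like Ighv12, is known from B-1 cells. On CDR these 2 segments were lower than on non-irradiated by 2.94-fold and 3.42-fold, while FLASH stood within 2-fold of non-irradiated. Ighv6-3 also had CDR lowest, at 8.70 on FLASH, 6.26 on CDR and 8.67 on non-irradiated. Ighv10-1 and Ighv10-3 are of 1 family, and both were under the level on CDR and above it on non-irradiated. On FLASH they parted, with Ighv10-1 at 9.27 and Ighv10-3 at 2.95. Ighv3-1 and Ighv3-8 parted as well, with Ighv3-1 above the level on FLASH only and Ighv3-8 on non-irradiated only, while Ighv3-3 was under it on every array. Ighv7-2, Ighv7-4, Ighv13-1, Ighv15-2 and Ighv16-1 were under the level on every array, reading between 2.07 and 3.25.

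**Figure D3:**
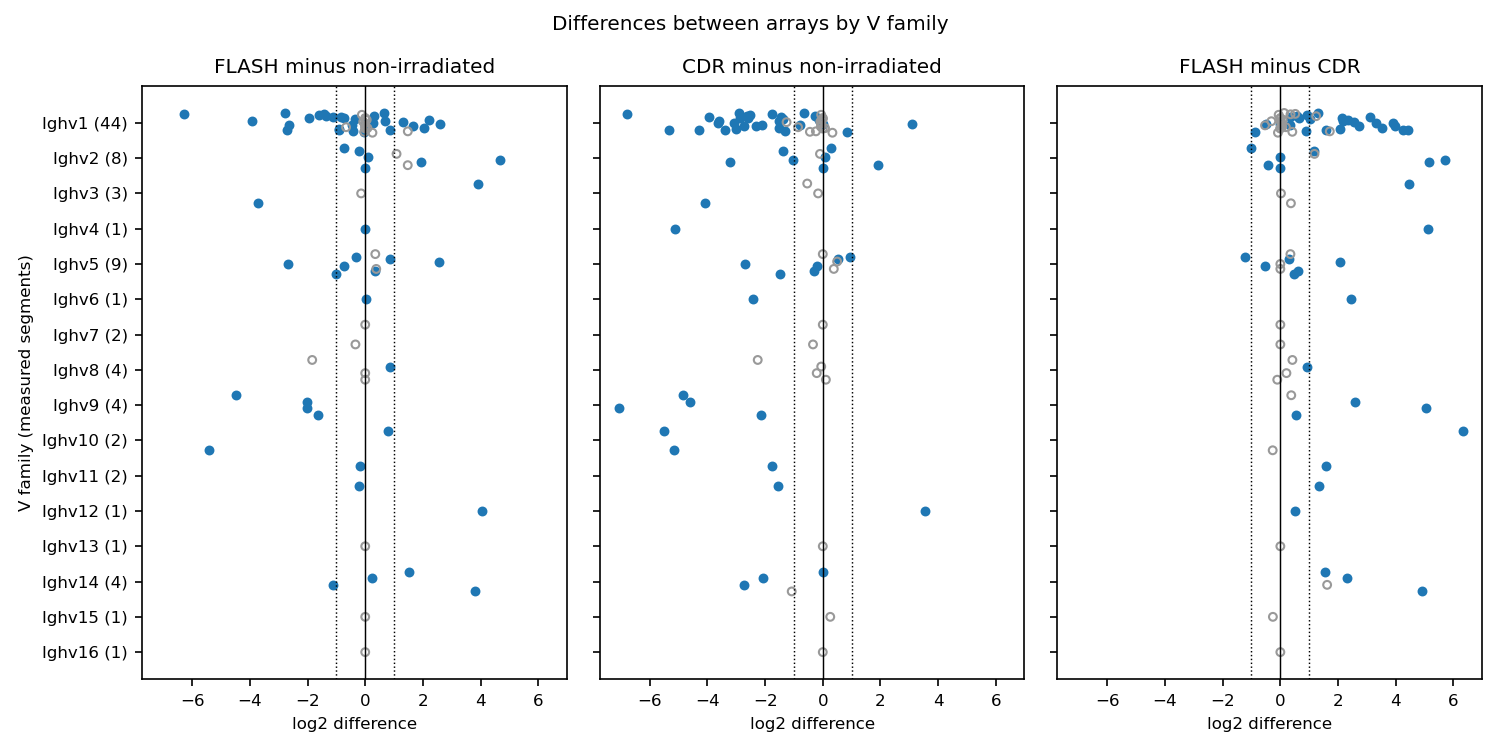
Log2 difference (horizontal axis) of every measured Ighv segment by V family (rows, with the number measured) for FLASH minus non-irradiated, CDR minus non-irradiated and FLASH minus CDR. Filled points were detected in that comparison, open points were not, and dotted lines mark 2-fold. All 4 Ighv9 segments lie below -1 in the first and second panels, and 16 of 44 Ighv1 segments lie above 1 among the filled points of the third.

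Segments were also placed in their order along the locus, from RefSeq, in 3 bins from the D segments outwards. The bin nearest to the D segments, from Ighv5-2 to Ighv14-4, held 30 segments and none of family Ighv1. The farthest, from Ighv1-49 to Ighv1-85, held 29, of which 25 were Ighv1, and the middle bin held 29, of which 19 were Ighv1. Position and family therefore overlap. FLASH exceeded CDR by at least 2-fold in 13 of 30 segments in the nearest bin, 8 of 29 in the middle and 10 of 29 in the farthest. CDR was at least 2-fold under non-irradiated in 13 of 30 segments of the nearest bin, 17 of 29 of the middle and 11 of 29 of the farthest. On FLASH against non-irradiated, the nearest bin had 6 higher and 6 lower, the middle bin 2 higher and 11 lower, and the farthest bin 4 higher and 2 lower. Within family Ighv1 alone, 8 of 19 segments in the middle bin and 2 of 25 in the farthest were at least 2-fold lower on FLASH than on non-irradiated. On CDR against non-irradiated these were 12 of 19 and 11 of 25, and FLASH was higher than CDR for 6 of 19 and 10 of 25. Over the 88 segments, Spearman's rho between locus order and the difference was -0.05 for FLASH minus non-irradiated, -0.11 for CDR minus non-irradiated and 0.02 for FLASH minus CDR. These values are a description, since the segments share arrays and neighbours share sequence. Ighv5-2, the D-proximal segment known for frequent early rearrangement and named after its values were seen, read 3.19 on FLASH, 2.84 on CDR and 2.84 on non-irradiated, under the level on each.

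Other antibody genes were read beside the V segments. The J segments Ighj1, Ighj3 and Ighj4, to which V segments are joined through D, were all at least 2-fold lower on CDR than on non-irradiated. Ighj3 read 10.96 on FLASH, 9.09 on CDR and 10.92 on non-irradiated. Ighj1 read 12.35 on FLASH, 11.00 on CDR and 12.61 on non-irradiated. In each of the 3 J segments FLASH lay within 2-fold of non-irradiated and CDR was lowest.

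On CDR against non-irradiated, 8 antibody constant regions were measured, with 0 higher and 3 lower by at least 2-fold. On FLASH against CDR, 2 were at least 2-fold higher and 1 lower. Ighm, the IgM constant region, read 11.64 on FLASH, 10.49 on CDR and 11.83 on non-irradiated. Igha, the IgA constant region, read 11.21 on FLASH, 9.95 on CDR and 11.31 on non-irradiated. Both had CDR lowest, as Ighv11-1, Ighv11-2 and Ighv6-3 did. Ighg2c, an IgG constant region, read 3.61 on FLASH, 4.34 on CDR and 8.84 on non-irradiated. Ighg2b read 3.90 on FLASH, 6.45 on CDR and 6.78 on non-irradiated. Ighg2c was thus low on both irradiated arrays and Ighg2b on FLASH only. Of the other IgG genes, both named after their values were seen, Ighg1 read 6.89 on FLASH, 6.96 on CDR and 7.51 on non-irradiated, and Ighg3 read 3.53 on each array, under the level.

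Kappa light chain V segments, the Igkv genes, had 44 of 94 higher and 4 lower by at least 2-fold on FLASH against CDR, with a median of 0.89. On CDR against non-irradiated 2 were at least 2-fold higher and 38 lower, with a median of -0.56. On FLASH against non-irradiated 26 were at least 2-fold higher and 19 lower, against 12 and 19 of the 88 heavy chain segments. The difference between the heavy and kappa chain counts was not tested.

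Of 10 measured V(D)J recombination genes, 0 were at least 2-fold higher in any comparison, and 1 was at least 2-fold lower on each irradiated array than on non-irradiated. With 10 genes, these counts are a description only. Dntt, the polymerase that adds bases at the joints, was that gene, at 6.90 on FLASH, 6.30 on CDR and 8.99 on non-irradiated. Rag1, of the recombinase itself, was under the level on every array, at 3.58 on FLASH, 3.56 on CDR and 3.58 on non-irradiated. Rag2 read 4.26 on FLASH, 3.85 on CDR and 4.26 on non-irradiated, close to the level. Of 8 measured genes of the surrogate light chain and receptor signalling, 0 were at least 2-fold higher or lower in any comparison. Cd79a, a signalling chain of the B cell receptor, read 5.11 on FLASH, 4.83 on CDR and 5.39 on non-irradiated, and Cd79b, its partner, read 8.05 on FLASH, 8.58 on CDR and 9.04 on non-irradiated.

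Some markers of other cell types had CDR lowest, like most of the segments. Of 15 antibody-secreting cell genes, 2 were at least 2-fold higher and 0 lower on FLASH than on CDR, and 0 higher and 2 lower on CDR than on non-irradiated. Jchain, the joining chain of secreted IgM and IgA, read 9.37 on FLASH, 7.65 on CDR and 9.79 on non-irradiated. Mzb1, an antibody-folding cofactor of the endoplasmic reticulum, read 6.06 on FLASH, 5.22 on CDR and 6.50 on non-irradiated. Both had CDR lowest, whereas Sdc1, the plasma cell marker CD138, was nearly level at 4.77 on FLASH, 4.77 on CDR and 4.87 on non-irradiated. Slamf7 read 6.40 on FLASH, 4.86 on CDR and 5.35 on non-irradiated. Creld2 had non-irradiated lowest, at 8.50 on FLASH, 8.37 on CDR and 7.75 on non-irradiated. Of the 15 genes, 4 were higher on CDR than on non-irradiated by any amount, 8 lower and 3 equal. The list had 13 of 15 genes above the level on FLASH, 12 on CDR and 13 on non-irradiated, with median levels of 6.06 on FLASH, 5.22 on CDR and 5.35 on non-irradiated. Prdm1, the plasma cell regulator BLIMP-1, read 3.76 on every array, under the level, and was named after its values were seen. The part of these cells in the segment values was not tested.

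Among 19 B lineage genes, 1 was at least 2-fold higher and 0 lower on FLASH than on CDR. That gene was Pou2af1, a coactivator of antibody gene promoters, at 6.11 on FLASH, 4.65 on CDR and 5.67 on non-irradiated. On CDR against non-irradiated 0 were higher and 3 lower, led by Ly6d, an early lymphoid surface marker, at 6.38 on FLASH, 5.44 on CDR and 7.35 on non-irradiated. The median level of the list was 4.17 on FLASH, 4.01 on CDR and 4.13 on non-irradiated. Dendritic cell genes had 6 of 16 at least 2-fold higher and 0 lower on FLASH than on CDR, with 14 above the level on FLASH, 13 on CDR and 13 on non-irradiated. Against non-irradiated, 8 of these 16 were at least 2-fold higher on FLASH and 4 on CDR, and 1 was lower on FLASH and 2 on CDR. Those lower were Flt3 on both arrays, also in the LT-HSC list, and Ly6d on CDR, also in the B lineage list. Of 18 T cell and NK cell genes, 0 were at least 2-fold higher or lower in any comparison, and Cd3e, a T cell receptor subunit, read 3.10 on each array, under the level. The part of B lineage and dendritic cells in the segment values was not tested either.

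**Figure D4:**
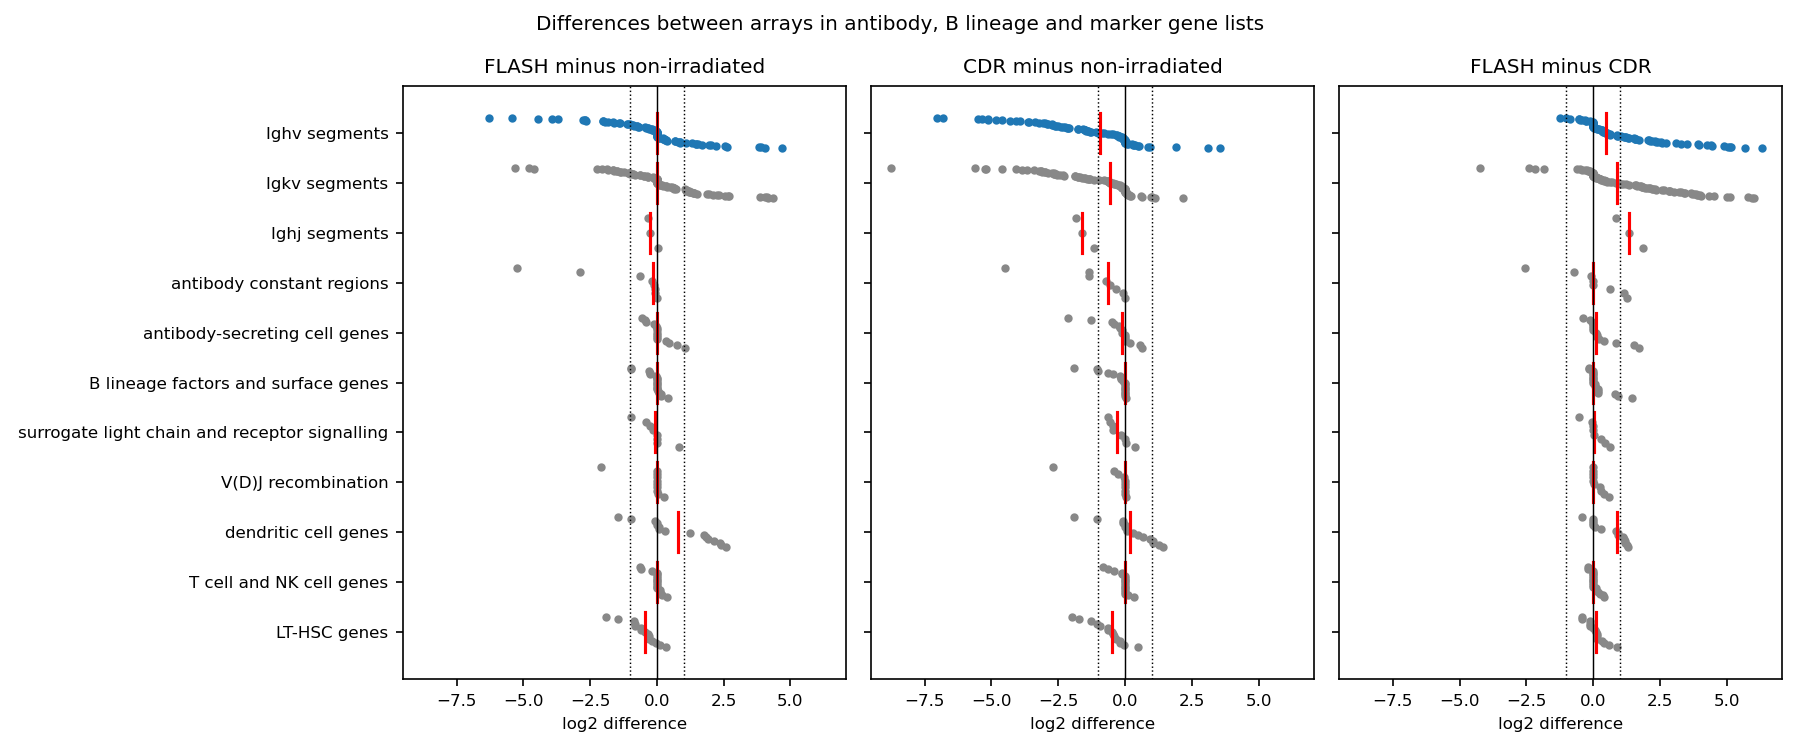
Log2 difference (horizontal axis) of each measured gene in the Ighv segments (top row) and in 10 other lists, for FLASH minus non-irradiated, CDR minus non-irradiated and FLASH minus CDR. Points are single genes, red bars list medians and dotted lines 2-fold. The V segments of both chains have the widest ranges in each panel, with Ighv medians of 0.00, -0.94 and 0.49 in the 3 panels.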

How the data were processed

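Expression was measured on Affymetrix arrays hybridised with biotin-labelled total RNA, per the labels' protocols, with 1 array each for FLASH, CDR and non-irradiated LT-HSCs. The deposited values are the authors' processed levels per probe set on a log scale, taken as log2 from their range. The submitters' processing notes name Partek. How background was corrected and arrays were normalised is not given in the sources used here. Of 25206 probe sets, 23185 carried 1 gene symbol and 2021 were unnamed. Values were used as deposited. No counts or depth exist for arrays, and their number limits the precision.

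The members, lists and the rule for named genes were chosen with earlier results of these data known. Named by rule were the 6 largest positive and negative differences per comparison among detected segments, all members of families with 3 or fewer measured, and the 6 detected segments with the smallest range. In other lists up to 4 members with the largest differences could be named, and others that included Ighm, Ighd, Jchain, Cd79a, Cd79b, Pax5, Rag1, Rag2, Dntt, Pou2af1, Sdc1, Cd3e, Procr, Slamf1 and Kit. Segments were ordered by RefSeq position, not by the number after the dash as first planned, because that number counts within a family. Segment sequences were not analysed here. Alternatives were median centring, quantile normalisation, cyclic loess (limma 3.58.1, R 4.3.3), an offset of 32 before the log, other filters (no filter, or the 99th percentile of the receptor genes), values under the detection level set to it, 1.5-fold and 3-fold thresholds, and leaving out family Ighv1. Values were computed in Python 3.11.15 with pandas 2.3.3, scipy 1.17.1 and numpy 2.4.6, and drawn with matplotlib 3.10.9. The calling step was tested on simulated data.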

Additional observations from a re-analysis of the deposited data

Results flagged for a closer look

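In deposited values, 4 segments had FLASH and CDR at least 2-fold from non-irradiated in opposite directions, FLASH above it and CDR below it. The difference between the arms was not tested, since each had 1 array. The FLASH minus CDR difference was 5.70 for Ighv2-6, 5.15 for Ighv2-9-1, 3.98 for Ighv1-64 and 3.53 for Ighv1-69. Ighv1-64 read 7.62 on FLASH, 3.64 on CDR and 5.95 on non-irradiated, and Ighv1-69 read 6.87 on FLASH, 3.34 on CDR and 4.85 on non-irradiated, both named after their values were seen. On CDR, Ighv2-6, Ighv1-64 and Ighv1-69 were under the detection level, with bounds of 1.53-fold, 3.47-fold and 1.61-fold lower than non-irradiated. Counted from the level, Ighv2-6 and Ighv1-69 are therefore not shown to be 2-fold lower on CDR.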

How the results depend on the processing

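No paired analysis was possible because each group had 1 array and the labels give no replicate numbers, and for the same reason no array could be left out. The alternative with 1 segment per group of near-identical proteins was not run. Of 123 values recomputed, 100 stayed within the tolerance (1.5 times for counts, 0.1 for medians) and 23 moved. Only the CDR minus non-irradiated and FLASH minus CDR medians could have changed sign, and neither did. The FLASH minus non-irradiated median, 0.00 as deposited, had no sign to change. It reached 0.07 when dim values were set to the detection level. With an offset of 32 before the log, 11 segments were at least 2-fold lower on FLASH than on non-irradiated and 0 lower on FLASH than on CDR, in 0 families, and the medians were -0.29 for CDR minus non-irradiated and 0.19 for FLASH minus CDR. With values under the detection level set to it, those medians were -0.28 and 0.056. Without family Ighv1, fewer segments were counted. FLASH then had 7 higher and 9 lower than non-irradiated, CDR had 18 lower than non-irradiated, and FLASH had 15 higher than CDR. The CDR minus non-irradiated median was -0.32 without that family, whose own median was -1.35. Over detected segments only, medians were -0.20 for FLASH minus non-irradiated, -2.10 for CDR minus non-irradiated and 1.56 for FLASH minus CDR, and with the stricter filter -0.21, -2.46 and 2.11. A segment could pass either filter through its brighter array alone, which favours large differences, so these medians are no independent check. Without exactly equal values, an alternative chosen after seeing the data, the medians were -1.39 for CDR minus non-irradiated and 0.90 for FLASH minus CDR. At 1.5-fold, 5 segments were higher on CDR than on non-irradiated, and at 3-fold 0 were lower on FLASH than on CDR. With the stricter filter 20 segments were above the level on the CDR array. Many CDR values lie under the detection level, which limits the size of those differences to bounds.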

Other observations

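The 3 measured V segments of the lambda light chain did not share 1 profile. Iglv1 read 8.05 on FLASH, 7.52 on CDR and 9.76 on non-irradiated, and Iglv2 read 7.39 on FLASH, 4.99 on CDR and 7.82 on non-irradiated. Iglv3 was higher on both irradiated arrays, at 7.94 on FLASH and 7.04 on CDR, against 5.61 on non-irradiated. Exact ties were rarer among the heavy chain V segments than over all named probe sets, with 8 of 88 (9.09%) holding the same value on all 3 arrays against 39.8%. These genes were named after their values were seen.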
